A study of Homo sapiens with 8 samples.

Results

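The metallothionein genes of human chromosome 16 were followed across 8 one-colour expression arrays of HEK293T cells, a human embryonic kidney line. The members were chosen by symbol, as the probes annotated to MT1A, MT1B, MT1E, MT1F, MT1G, MT1H, MT1M, MT1X, MT2A and MT3, which gave 10 genes and 12 probes out of 19483 named genes and 34127 probes on the array. All clones were made by transfecting HEK293T cells with a plasmid, selecting with blasticidin S and picking single colonies, so that each array is 1 clone grown in the same medium. The 4 groups held 2 clones each. The controls were empty vector #1 and #2. The untargeted TET1-CDwt clones were #2 and #5, the fusion MBD-TET1-CDwt was held by #3 and #10, and its inactive form MBD-TET1-CDmut by #9 and #10. TET1-CDwt expresses only the domain of TET1 that oxidises 5-methylcytosine. In MBD-TET1-CDwt that domain is joined to a protein module that binds methylated CpG sites, and MBD-TET1-CDmut carries the same fusion made catalytically dead. The comparisons ask whether genes change when the catalytic domain is directed to methylated DNA. The empty vector and TET1-CDwt arrays lay on slide 1 and both fusions on slide 2, so that across slides slide and construct cannot be told apart, while TET1-CDwt against empty vector and MBD-TET1-CDwt against MBD-TET1-CDmut were each compared within 1 slide.

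Metallothioneins are small cysteine-rich proteins that bind zinc and copper and take up cadmium. Their transcription is induced by zinc through MTF1, a zinc-sensing transcription factor that binds short metal response elements upstream of the genes, and MT2A and several MT1 genes also respond to glucocorticoid and oxidative stress. MT1 genes and MT2A are used widely across tissues, whereas MT3 is known best from brain. The members are close in sequence, and how far RNA of 1 member binds the probe of another was not tested.

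Promoter sequences are shown because metal response elements in them set the induction of these genes by metal. The RefSeq promoter table (GRCh38.p14) matched 4 of the 10 members, and MT1A, MT1E, MT1F, MT1G, MT1M and MT3 had no match. The 250 bases before the transcript start are given 5′ to 3′ on the + strand for MT2A (chr16:56608334-56608583), MT1B (chr16:56651636-56651885), MT1H (chr16:56669564-56669813) and MT1X (chr16:56682220-56682469). Capitals mark each match to the core of the metal response element, TGCACNC or TGCGCNC, on either strand, and no match overlapped another.
MT2A: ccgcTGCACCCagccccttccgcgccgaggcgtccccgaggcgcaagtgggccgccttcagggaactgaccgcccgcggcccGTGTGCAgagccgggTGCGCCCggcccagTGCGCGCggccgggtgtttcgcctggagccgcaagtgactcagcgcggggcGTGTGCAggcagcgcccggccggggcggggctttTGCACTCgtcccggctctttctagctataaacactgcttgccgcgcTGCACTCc
MT1B: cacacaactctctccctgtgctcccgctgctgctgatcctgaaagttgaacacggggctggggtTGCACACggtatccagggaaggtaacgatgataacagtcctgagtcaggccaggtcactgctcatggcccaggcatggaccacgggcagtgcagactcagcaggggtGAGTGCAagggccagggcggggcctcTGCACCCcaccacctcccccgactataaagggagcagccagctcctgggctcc
MT1H: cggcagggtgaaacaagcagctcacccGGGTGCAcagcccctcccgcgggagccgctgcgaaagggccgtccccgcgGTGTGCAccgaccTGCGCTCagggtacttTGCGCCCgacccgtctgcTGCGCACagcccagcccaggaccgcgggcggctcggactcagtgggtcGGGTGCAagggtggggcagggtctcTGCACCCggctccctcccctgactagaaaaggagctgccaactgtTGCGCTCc
MT1X: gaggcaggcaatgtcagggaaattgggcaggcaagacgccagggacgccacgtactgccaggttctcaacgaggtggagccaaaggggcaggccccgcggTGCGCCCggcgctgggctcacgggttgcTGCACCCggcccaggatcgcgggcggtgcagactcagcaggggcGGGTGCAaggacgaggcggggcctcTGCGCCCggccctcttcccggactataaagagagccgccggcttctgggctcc
MT2A held 7 matches and MT1H held 8, and 0.0313% of all 35116 promoters of this length held at least 7. MT1X held 4 matches, against 0.370% of promoters with at least 4, and MT1B held 3, against 1.58% with at least 3. At least 1 match was present in 24.8% of promoters. A TATAAA began at position -29 from the start in MT2A and at -30 in MT1B and MT1X, and no TATAAA was found in the MT1H window, against 6.80% of all promoters with one. MT2A had 32 CpG dinucleotides, MT1H and MT1X 22 each and MT1B 7, where the median promoter had 11. These matches describe the letters of the windows and say nothing of the factor.

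Signals are given as log2 of the processed intensity minus the 75th percentile of that array, so that 0 is that percentile itself. The percentile lay between intensities of 328 and 527, and the scanner software placed 63.2 to 68.2% of probes well above background. By the best probe of each gene, the 7 marker genes of HEK293T were well above background on all 8 arrays. So were PTPRC, LCP1, APOA1 and CDH5 of the 10 markers of leukocytes, hepatocytes, endothelium and keratinocytes, and ALB, TTR, KRT5, KRT14, CD53 and PECAM1 were on none. Other probes of PAX2, EYA1, PTPRC and APOA1 were dim on some or all arrays. The 2 TET1 probes lay between -1.55 and -0.70 and between 2.61 and 2.94, and since their place in the transcript is not given they check no label.

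Most of the member probes gave signal in every clone. On all arrays with a value, 9 of the 12 probes, annotated to 8 genes, were well above background, MT1H on 1 of its probes only. MT1A, a member of the MT1 group induced by metal, read 4.22 and 4.03 in the empty vector clones, 4.22 and 3.74 in TET1-CDwt, 3.62 and 4.07 in MBD-TET1-CDwt and 3.83 and 4.16 in MBD-TET1-CDmut. MT2A, the most widely used metallothionein, read 4.07 in empty vector #1, 4.33 in TET1-CDwt #2, 3.69 and 3.75 in MBD-TET1-CDwt and 3.36 and 3.84 in MBD-TET1-CDmut. Its spots on empty vector #2 and TET1-CDwt #5 were marked as not uniform and left out, so that the limma fit of MT2A rests on 6 arrays, and as marked they read 3.81 and 3.60. The groups overlapped for MT1A, while for MT2A 1 usable clone stood for empty vector and 1 for TET1-CDwt.

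MT3, the brain-associated member, read 1.70 and 1.82 in empty vector, 1.73 and 1.91 in TET1-CDwt, 2.004 and 1.91 in MBD-TET1-CDwt and 1.97 and 1.82 in MBD-TET1-CDmut. It had the narrowest range of the 9 probes, 0.30. Both clones of each fusion lay above both empty vector clones, MBD-TET1-CDmut #10 barely so (1.8248 against 1.8225), and so did TET1-CDwt #5. The fusions lay on the other slide, and the share of all probes ordered in this way was not counted. MT1B read 1.32 and 1.12 in empty vector, 1.57 and 0.89 in TET1-CDwt, 0.97 and 1.20 in MBD-TET1-CDwt and 0.79 and 1.14 in MBD-TET1-CDmut. MT1E read 0.25 and 0.07, then 0.52 and -0.14, -0.10 and 0.31, and -0.37 and 0.00 in the same order. In both MT1B and MT1E the clones of TET1-CDwt spanned all other clones except MBD-TET1-CDmut #9. For MT1E both MBD-TET1-CDmut clones lay below both empty vector clones, and the other groups overlapped.

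MT1F read 0.85 and 0.66 in empty vector, 1.43 and -0.02 in TET1-CDwt, 0.13 and 0.85 in MBD-TET1-CDwt and 0.43 and 0.35 in MBD-TET1-CDmut. Its range of 1.45 was the widest of the 9 probes and was the gap between the TET1-CDwt clones. MT1H, on the probe that gave signal, read 1.60 and 1.42 in empty vector, 1.94 and 1.26 in TET1-CDwt, 1.12 and 1.54 in MBD-TET1-CDwt and 1.02 and 1.36 in MBD-TET1-CDmut. The other MT1H probe was not well above background on any array, with signals from -8.32 to -7.82, so that the probes of this gene disagree. MT1X read 0.20 and 0.24 in empty vector, 0.53 and 0.44 in TET1-CDwt, 0.06 and 0.19 in MBD-TET1-CDwt and -0.53 and -0.02 in MBD-TET1-CDmut on one probe (A_33_P3236868). On its other probe (A_33_P3350056) it read 1.86 and 1.77, 2.16 and 1.76, 1.57 and 1.77, and 1.30 and 1.67. On the first MT1X probe both TET1-CDwt clones were the highest and both MBD-TET1-CDmut clones the lowest. On the second both empty vector clones lay just above all 4 clones of the fusions, while TET1-CDwt overlapped empty vector and MBD-TET1-CDwt. The share of all probes ordered in either way was not counted, and both orders set slide 1 against slide 2. Both MBD-TET1-CDmut clones lay below both empty vector clones in 5 of the 9 member probes with a value in all 4 (MT1E, MT1F, MT1H and both MT1X probes), beside 19.3% of all probes tested, in a comparison that crosses slides.

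MT1G stood apart from the other members. Its signal was not well above background in empty vector (-7.87 and -8.09), in TET1-CDwt #2 (-8.07) or in MBD-TET1-CDmut (-7.63 and -7.61). It was called well above background in 3 clones, MBD-TET1-CDwt #3 and #10, at -5.17 and -5.01, and TET1-CDwt #5, at -2.79. The brightest MT1G signal was thus in a clone without the methyl-CpG binding domain, and its sister clone was among the dimmest. The 7 bright MT1 probes were lower in TET1-CDwt #5 than in its sister clone. In the list described further on, TET1-CDwt #5 was highest for 3 of 11 copper handling, 3 of 11 zinc exporter and 2 of 14 zinc importer probes. It was highest for 4 of 6 oxidative stress enzyme and 2 of 5 glucocorticoid-responsive probes, but not for MTF1. The share of all tested probes highest on that clone was not counted, so these counts cannot be set against the whole array. Any part of the listed genes in the MT1G signal was not tested. HMOX1, the heme-degrading enzyme, read 3.91 in TET1-CDwt #5 and 1.00 in #2, 1.29 and 1.98 in empty vector, 2.14 and 0.56 in MBD-TET1-CDwt and 1.14 and 0.98 in MBD-TET1-CDmut. Against the lowest signal called well above background on the comparison arrays, the MT1G mean of the MBD-TET1-CDwt clones exceeded the empty vector mean at least 1.77-fold and the MBD-TET1-CDmut mean at least 1.36-fold. TET1-CDwt #5 alone was at least 8.74-fold higher than empty vector. In bulk RNA, fewer expressing cells and less RNA per cell cannot be told apart. MT1G belongs to a list that the study drew up on these arrays, of genes raised 5-fold or more against empty vector. That is no independent evidence of its direction. The bounds above hold dim signals at the lowest signal well above background. As measured, with empty vector at background, the MBD-TET1-CDwt mean was 7.44-fold that of empty vector, so the 2 measures are unlike.

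The limma difference of MT1G in measured signal, dim arrays included, was 2.90 (SE 1.43, adjusted p = 0.801) for MBD-TET1-CDwt against empty vector and 2.53 (SE 1.43, adjusted p = 0.787) against MBD-TET1-CDmut, both on the log2 scale. MT1G was among the probes tested only because both MBD-TET1-CDwt clones were well above background. All 8 arrays share 1 estimate of the spread, the gap between the TET1-CDwt clones included. Without either TET1-CDwt clone the adjusted p of limma became 0.0105 against empty vector and 0.0220 against MBD-TET1-CDmut, with an SE of 0.187, and with only the 2 groups compared it was 0.101 and 0.0748. The spread left is mostly that of arrays at background and the filter passed MT1G through its bright group, so that these p-values give no support to a difference. TET1-CDwt against empty vector differed by 2.56 (SE 1.43, adjusted p = 1.00 by limma). The difference was 5.20 with TET1-CDwt #5 alone and -0.086 with TET1-CDwt #2 alone, each from a lone clone. The value rests on which clone is kept. MBD-TET1-CDmut against empty vector differed by 0.36 (SE 1.43). With local background subtracted and an offset of 50, chosen after seeing the data, the MBD-TET1-CDwt differences were 0.39 against empty vector and 0.22 against MBD-TET1-CDmut. The processed intensities of MT1G in MBD-TET1-CDwt were 9.73 and 10.2, far under that offset. The offset by itself shrinks any difference between signals so dim, so these smaller values do not test the difference. Over the 9152 probes dim on all arrays, the median difference was 0.37 for MBD-TET1-CDwt against empty vector, 0.35 for MBD-TET1-CDmut against empty vector and 0.03 between the fusions.

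MT1M, another zinc-binding MT1 member, was not well above background on any array. It read -7.83 and -7.74 in empty vector, -8.04 and -7.98 in TET1-CDwt, -7.43 and -5.72 in MBD-TET1-CDwt and -7.54 and -7.60 in MBD-TET1-CDmut. The signal of MBD-TET1-CDwt #10 was the highest and lay just under -5.51, where the signals called well above background began for that clone, so neither a fold nor a difference is given. The study reported MT1M as hypermethylated in HEK293T cells and, by RT-PCR, reactivated in both MBD-TET1-CDwt clones and with no other construct. It also reported higher MT1M signals on these arrays in those clones. A probe at background does not show that MT1M RNA was absent.

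**Figure D1:**
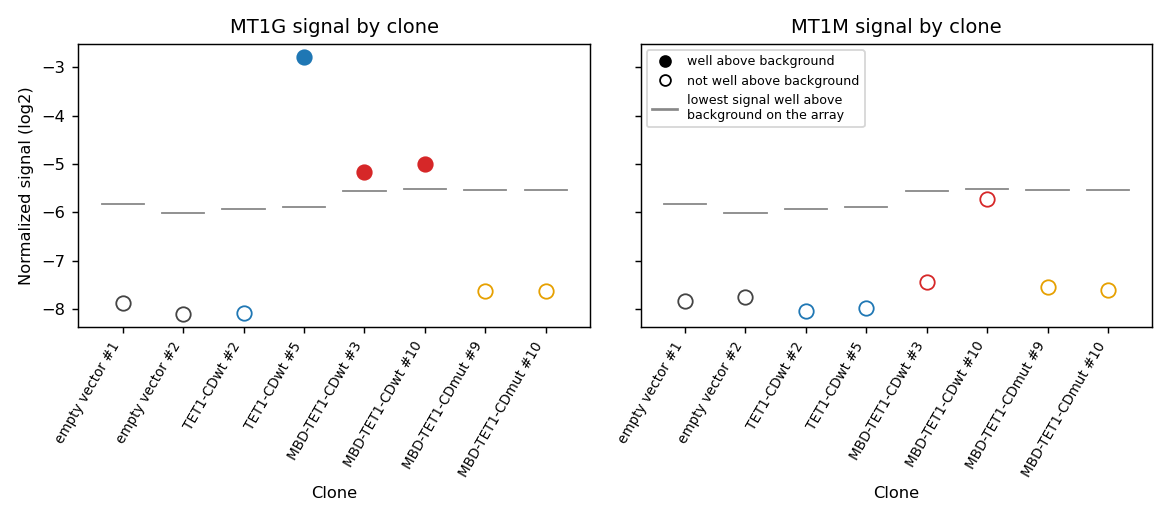
Normalized log2 signal of MT1G and MT1M (y axis) in each of the 8 clones (x axis), filled where well above background, with a grey bar where signals called well above background began on each array. MT1G clears its bar in TET1-CDwt #5 (-2.79) and in both MBD-TET1-CDwt clones (-5.17 and -5.01), and MT1M in none.

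No member passed the test in any comparison between constructs. Of the 10 member probes tested by limma, 0 had an adjusted p under 0.05 in MBD-TET1-CDwt against empty vector, where 0.12% of all 22567 tested probes did, and 0 had an unadjusted p under 0.05. The count was also 0 of 10, adjusted and unadjusted, against MBD-TET1-CDmut (0.111% of all probes called), against TET1-CDwt (0.12%), in TET1-CDwt against empty vector (0%) and in MBD-TET1-CDmut against empty vector (0%). At these backgrounds, no call among 10 probes says little of the members. By size alone, a probe counted when both clones of the higher group were well above background. By this rule 0 members were higher by 2-fold or more in MBD-TET1-CDwt against empty vector (0.937% of 28188 named genes and unnamed probes) and 0 were lower (0.766%), with dim signals held at the lowest signal well above background. Against MBD-TET1-CDmut the counts were 0 higher (0.997%) and 0 lower (0.827%), and against TET1-CDwt 0 higher (0.823%) and 0 lower (0.585%). For TET1-CDwt against empty vector they were 0 higher (0.273%) and 0 lower (0.443%), MT1G being left out there because TET1-CDwt #2 was at background (with that clone held at the lowest signal well above background the TET1-CDwt mean was 2.93-fold that of empty vector), and for MBD-TET1-CDmut against empty vector 0 higher (0.28%) and 0 lower (0.319%). With dim signals left as measured, MT1G alone of the members was higher by 2-fold or more, against both empty vector and MBD-TET1-CDmut. The share of all genes higher by 2-fold in signals as measured was not counted, and the percentages above do not apply to it.

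The 9 probes other than MT1G differed by -0.35 to 0.20 in MBD-TET1-CDwt against empty vector, with SE from 0.17 to 0.46. They differed by -0.15 to 0.40 against MBD-TET1-CDmut and by -0.61 to 0.14 against TET1-CDwt. TET1-CDwt against empty vector ranged from -0.14 to 0.26, and MBD-TET1-CDmut against empty vector from -0.50 to 0.14. The median over all 10 member probes was -0.14, 0.13, -0.18, 0.07 and -0.33 in these 5 comparisons, beside -0.02, 0.01, 0.02, -0.03 and -0.02 over all probes tested. Several of the comparisons share the same clones, and both fusions against empty vector, like MBD-TET1-CDwt against TET1-CDwt, also cross slides.

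**Figure D2:**
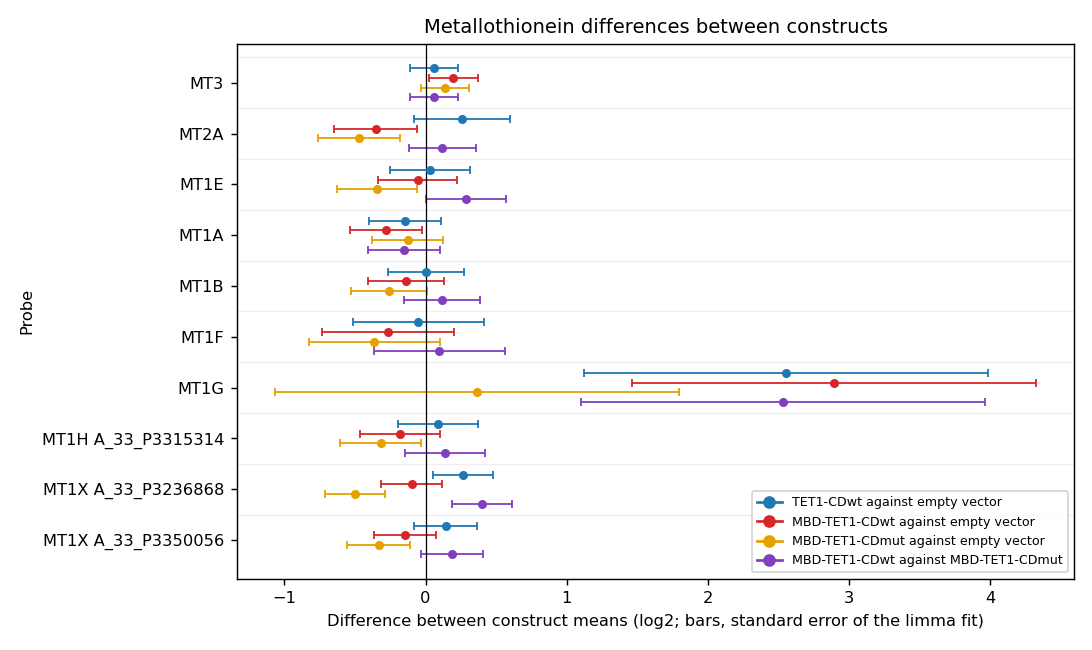
Difference between construct means (x axis, log2) of the 10 tested metallothionein probes (y axis) in 4 comparisons, with the SE of the limma fit as bars. MT1G shows the largest differences, 2.53 to 2.90 in 3 comparisons, with an SE of 1.43, and the other probes lie between -0.50 and 0.40.

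Sister clones of a construct also differed. The 7 probes of 6 MT1 genes that were bright on every array were highest in TET1-CDwt #2 in 6 of 7 cases and lowest in MBD-TET1-CDmut #9 in 5 of 7. The share of all tested probes highest or lowest on these clones was not counted. The 7 probes are of genes close in sequence, and how far they read the same RNA was not tested. TET1-CDwt #2 exceeded #5 in 7 of the 8 member probes measured on both arrays, by a median of 0.56 (-0.18 to 1.45), beside a median of -0.03 and a median absolute difference of 0.26 over all probes tested. MBD-TET1-CDwt #3 exceeded #10 in 1 of 9 member probes, with a median of -0.23, and the median absolute difference over all probes tested was 0.37 there. MBD-TET1-CDmut #9 exceeded #10 in 2 of 9, with a median of -0.35, beside 0.17. Empty vector #1 exceeded #2 in 6 of 8, with a median of 0.18, beside a median absolute difference of 0.22. MT1G was bright in TET1-CDwt #5, where the 7 bright MT1 probes were lower than in #2 and MT3 was higher.

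The neighbours in the cluster showed the same split between bright and dim probes. Among the members, by the order of the RefSeq gene table, MT1G lies between MT1F and MT1H, and MT1M between MT1E and MT1A. MT1F, MT1E and MT1A were well above background in every clone. MT1H was so on 1 probe only, while its other probe (A_33_P3368313) was well above background on no array. The pseudogene MT1L read 1.49 and 1.22 in empty vector, 1.73 and 0.96 in TET1-CDwt, 1.06 and 1.34 in MBD-TET1-CDwt and 0.91 and 1.25 in MBD-TET1-CDmut. MT4, an epithelial metallothionein at the edge of the cluster, and the pseudogenes MT1DP and MT1IP were not well above background on any array. BBS2, a gene of primary cilia next to MT4, lay between 0.92 and 1.62, and NUP93, a nuclear pore component next to MT1X, between 1.10 and 1.75. Of the 10 nearest protein-coding neighbours 8 were tested, on 12 probes, of which 0 passed limma in any comparison, with 2 at an unadjusted p under 0.05 in MBD-TET1-CDwt against empty vector.

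**Figure D3:**
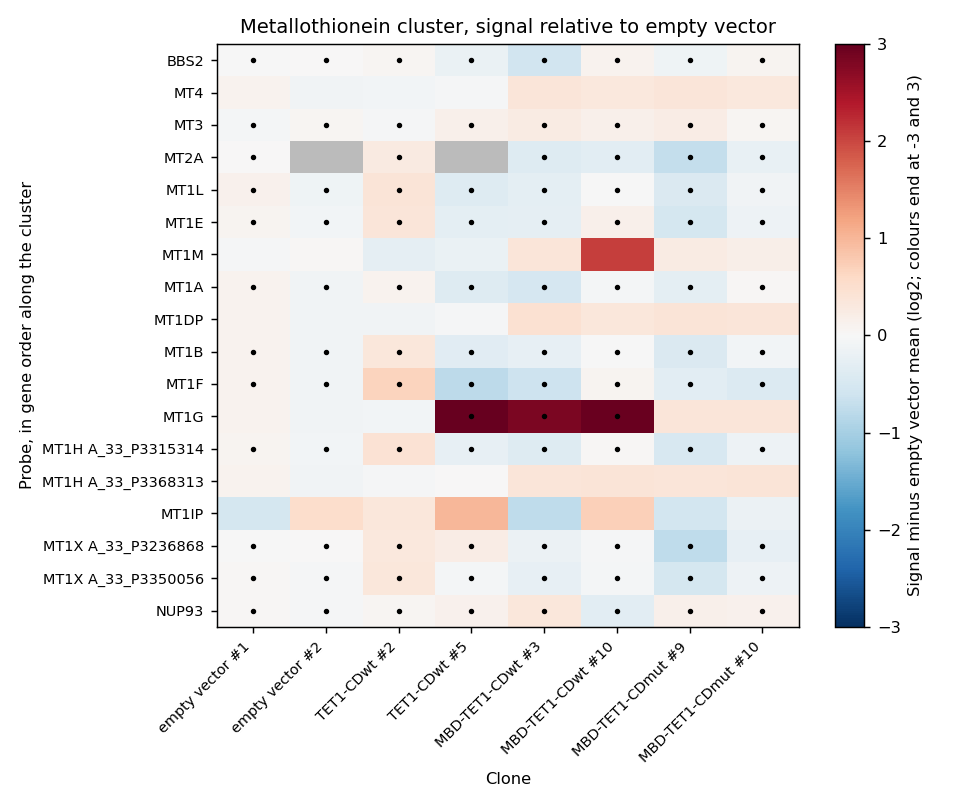
Signal of each clone (x axis) minus the empty vector mean (colour, log2, ending at -3 and 3) for the probes of the cluster in gene order with BBS2 and NUP93 on either side (y axis). Dots mark signals well above background, grey marks left-out MT2A spots, and MT2A is set against empty vector #1 alone. The dark cells are MT1G in 3 clones and, without a dot, MT1M in MBD-TET1-CDwt #10.

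A list of 43 genes held those that sense or move zinc and copper, together with 6 oxidative stress enzymes and 5 glucocorticoid-responsive genes, and 40 of them were tested on 48 probes. In every comparison 0 of the 48 probes passed limma, while 1 (MBD-TET1-CDwt against empty vector), 7 (against MBD-TET1-CDmut) and 1 (against TET1-CDwt) had an unadjusted p under 0.05. That is 2.08%, 14.6% and 2.08% of the list, beside 6.59%, 6.85% and 4.74% of all 22567 probes. The median difference was -0.03 against empty vector and 0.02 against MBD-TET1-CDmut, beside -0.02 and 0.01 over all probes tested. MTF1, the metal sensor, read -1.98 and -1.71 in empty vector, -1.74 and -1.92 in TET1-CDwt, -1.35 and -1.88 in MBD-TET1-CDwt and -1.69 and -1.89 in MBD-TET1-CDmut. Its difference between MBD-TET1-CDwt and empty vector was 0.23 (SE 0.23), and the groups overlapped. SLC30A1, the zinc exporter that MTF1 induces, read -0.05 and 0.14 in empty vector, 0.01 and 0.26 in TET1-CDwt, -0.70 and 0.36 in MBD-TET1-CDwt and -0.23 and 0.08 in MBD-TET1-CDmut, so that the MBD-TET1-CDwt clones were both the lowest and the highest.

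By role, the largest differences of MBD-TET1-CDwt against empty vector were 0.72 for the zinc exporter SLC30A2, 0.96 for the zinc importer SLC39A8, -0.48 for 1 of 4 probes of the copper transporter ATP7A, 1.01 for the quinone reductase NQO1 and 1.03 for the glucocorticoid-responsive kinase SGK1. NQO1 read -4.90 and -4.80 in MBD-TET1-CDwt and -5.78 and -5.94, not well above background, in empty vector, with a limma SE of 0.33 and an adjusted p of 0.679. TET1-CDwt #2 was higher still for NQO1, at -4.68. Against MBD-TET1-CDmut the largest difference was 2.04 (SE 0.72, adjusted p = 0.665 by limma) for one SLC39A8 probe, which was not well above background in either MBD-TET1-CDmut clone. Held at the lowest signal well above background, it was at least 3.103-fold higher, while the other probe of this gene differed by 0.03. The other 3 ATP7A probes differed by -0.13, -0.16 and 0.17 against empty vector.

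The genes most like the members across the 8 arrays, by Pearson's r with the mean profile of the member probes seen on at least 1 array, were PREP (0.955), NDUFA13 (0.945), RCOR2 (0.945), SSTR2 (0.943) and PTPN18 (0.924) among 18509 probes. These arrays share slides and clones, and the 5 probes ranged over 0.40 to 0.61 only. The profile carries the wide range of MT1G, and with the 9 bright probes alone the leading genes were G0S2 (0.979) and the pseudogene MT1L (0.968), an alternative chosen after the values were seen.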

How the data were processed

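Total RNA of 8 HEK293T clones was hybridised by the authors to one-colour Agilent arrays. The deposited intensity is the processed signal, background-corrected by Agilent Feature Extraction (9.5.1 per the labels, 10.7.3.1 per the file headers). It was converted here to log2 after flagged outlier spots and control probes were left out, spots of a probe were averaged, and the array's 75th percentile was subtracted. Different probes of a gene were kept apart. Groups came from the sample labels. The 22567 probes that both clones of some group showed well above background were fitted with limma 3.58.1 (R 4.3.3), with 4 group means, Benjamini-Hochberg adjustment over all of them and a threshold of 0.05. All members were named. Of the metal handling list, MTF1, SLC30A1 and the largest difference in each role were named. The members and lists were chosen with earlier results of these data known. p-values measure only the spread between clones. 2 clones a group limit the precision, and a simulation of the contrast of MBD-TET1-CDwt with empty vector (22530 probes) recovered 69 of 100 5-fold and 7 of 100 2-fold changes, with 4 false calls. It used normal noise with the spreads shuffled over probes, so that it does not describe a dim probe that varies between clones, such as MT1G. Other scalings, background corrections and filters, and leaving out each clone, were tried.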

Additional observations from a re-analysis of the deposited data

Results flagged for a closer look

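On one MT1X probe (A_33_P3236868), both TET1-CDwt clones lay above the empty vector mean and both clones of each fusion lay below it. The share of all probes ordered in this way was not counted. TET1-CDwt exceeded MBD-TET1-CDwt there by 0.36 (SE 0.21, adjusted p = 0.985 by limma) and MBD-TET1-CDmut by 0.76 (SE 0.21, adjusted p = 1.00 by limma, unadjusted p = 0.0092), so that neither difference passed. Both set slide 1 against slide 2, and slide and construct cannot be told apart. On the other MT1X probe TET1-CDwt #5 lay below the empty vector mean.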

How the results depend on the processing

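No paired analysis was possible because clones were picked separately for each construct and their numbers tie no clone of one group to a clone of another. Normexp was not run, since the files hold no mean spot signal and the fit to the median signal put the background mean at -1058 on empty vector #2 and -147 on MBD-TET1-CDmut #10, against -4.26 to 3.76 elsewhere; local background subtraction with an offset of 50, chosen after seeing the data, took its place.

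The counts of members by limma and by size were 0 in every comparison under quantile and median scaling, the other filters on dim probes, the fit of only the 2 groups and the intensity trend. With dim signals left as measured, 1 member, MT1G, passed 2-fold in MBD-TET1-CDwt against empty vector and 1 against MBD-TET1-CDmut. Leaving out each clone in turn gave 0 to 1 limma calls in MBD-TET1-CDwt against empty vector, against MBD-TET1-CDmut and against TET1-CDwt, and in TET1-CDwt against empty vector, and 0 to 1 members at least 2-fold higher in the last; MT1G was the member each time, and the clone left out was a TET1-CDwt clone. These calls give no support to a difference. The filter passed MT1G through MBD-TET1-CDwt, and the spread left is mostly that of arrays at background. Between MBD-TET1-CDwt and TET1-CDwt, MT1G differed by 2.98 with only TET1-CDwt #2, at background, and by -2.30 with only #5. Between TET1-CDwt and empty vector the MT1G difference went from 5.20 with only #5 to -0.086 with only #2. Other differences changed sign too. Against empty vector the log2 difference ranged from -0.26 to 0.15 for MT1E, from -0.62 to 0.092 for MT1F and from -0.39 to 0.032 for MT1H. Against MBD-TET1-CDmut it ranged from -0.37 to 0.072 for MT1A, from -0.055 to 0.29 for MT1B, from -0.26 to 0.45 for MT1F, from -0.075 to 0.35 for MT1H, from -0.12 to 0.36 for MT2A and from -0.014 to 0.13 for MT3. The list of metal handling, oxidative stress and glucocorticoid genes had 0 calls throughout. Signals near background limit MT1G and MT1M.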

Other observations

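Of 34127 probes, 6 were well above background on exactly the 3 arrays on which MT1G was, TET1-CDwt #5 and both MBD-TET1-CDwt clones. The others with a symbol were TEX14, KCNE4, FAM124B and SPATA45. For comparison, the 2 MBD-TET1-CDwt arrays alone shared 37 such probes. These probes were picked after their values were seen, and no test was made of them. TEX14 read -3.21 in TET1-CDwt #5 and -4.38 and -3.48 in MBD-TET1-CDwt, and KCNE4 read -5.34 in the former and -4.68 and -4.92 in the latter.

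HERPUD1, a gene of the endoplasmic reticulum stress response and the third neighbour after the cluster, read 3.36 in MBD-TET1-CDwt #3 and between 5.42 and 6.08 in the other 7 clones. It was named after its values were seen.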
